A study of Capra hircus with 6 samples.

Results

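The interferon regulatory factors are transcription factors that share a DNA-binding domain and switch on interferon and antiviral genes. They were taken here as every row of the expression tables whose symbol is IRF followed by a single digit, which gave 8 genes of 16285 rows, and 7 are described: IRF1, IRF2, IRF3, IRF4, IRF5, IRF7 and IRF9. IRF8 was not analysed here. The tables come from goat (Capra hircus) adipose mesenchymal stem cells, the stromal progenitors of fat tissue, labelled as put through adipogenic differentiation in all 6 libraries. The control group is 3 libraries of wild-type (WT) cells, and the other group is 3 libraries of cells overexpressing TAZ, a coactivator of the Hippo pathway encoded by WWTR1. The labels do not name the vector, an empty-vector control, the number of clones or the animals, and although the study's title names TNF-α, no sample carries a TNF-α label. The comparison asks how the family differed between TAZ-overexpressing and control cells.

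In resting cells IRF3 is made constitutively and waits in the cytoplasm until viral RNA or DNA sensors activate the kinases TBK1 and IKBKE, which phosphorylate it. IRF7 is activated by the same kinases, is usually scarce, and is itself an interferon-induced gene, so that it amplifies the response. IRF9 is the DNA-binding subunit of ISGF3, the complex with STAT factors that forms when interferon binds its receptor. IRF1 is an activator induced by interferon and by NF-kB, and IRF2 binds much the same DNA element and can oppose it. IRF4 and IRF5 are best known from lymphoid and myeloid cells, and IRF4 also from fat cells.

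The libraries held 33871397 to 37705644 fragments, recovered from the steps between low values, and all values are FPKM (fragment numbers scaled to gene length and library total). WWTR1, the check of the labels, stood at 29.9 to 35.9 FPKM in the controls and 84.2 to 118 FPKM in the TAZ libraries, although construct and endogenous transcripts cannot be told apart. All 13 stromal markers examined were above 1 FPKM in every library, and their levels moved as well: 5 rose, 4 fell and 4 did not pass. For comparison with this and the marker counts that follow, 15.7% of all genes tested rose and 22.1% fell. PDGFRB and CD44 rose by log2 fold changes of 0.77 and 0.55, while ENG and FAP fell by 0.68 and 1.01 (limma adjusted p of 0.000336 or lower for the 4). Of 9 endothelial markers 7 were below the filter, and of the 2 tested ERG fell from 10.1 ± 0.525 to 5.77 ± 0.311 FPKM and EGFL7 did not pass. Of the 19 leukocyte markers measured, 15 were below the filter, and PTPRC (CD45), which marks all leukocytes, was listed at 0 in all 6 libraries. The 4 leukocyte markers that were tested went both ways: CD14 and LAPTM5 rose, from 9.58 ± 1.38 to 24.2 ± 0.421 FPKM and from 9.47 ± 0.228 to 13.3 ± 0.761 FPKM, while CD68 and CORO1A fell. The summed level of the 19 markers was 31.7 to 34.4 FPKM in the controls and 44.5 to 46.4 FPKM in the TAZ libraries. The rise of this sum was mostly that of CD14, so it does not show that the markers rose as a set. The part of these marker changes in the results below was not tested, and in bulk RNA a change in the share of cells cannot be told apart from a change in RNA per cell.

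Of the 7 genes, 5 were at 1 FPKM or more in all 6 libraries (IRF1, IRF2, IRF3, IRF7 and IRF9), so none of them passed the filter through one group alone. All 5 rose in the TAZ libraries at an adjusted p under 0.05 in limma, against 15.7% of the 10750 genes tested that rose and 37.9% that changed in either direction. In each of the 5 the lowest TAZ library lay above the highest control library, which held for 19.7% of tested genes, while 28.7% lay wholly lower in the TAZ libraries. Log2 fold changes are given as TAZ minus control on the log2(FPKM + 1) scale, which understates changes of low genes. The median over all tested genes was -0.05. IRF4 and IRF5 stayed below 1 FPKM everywhere.

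**Figure D1:**
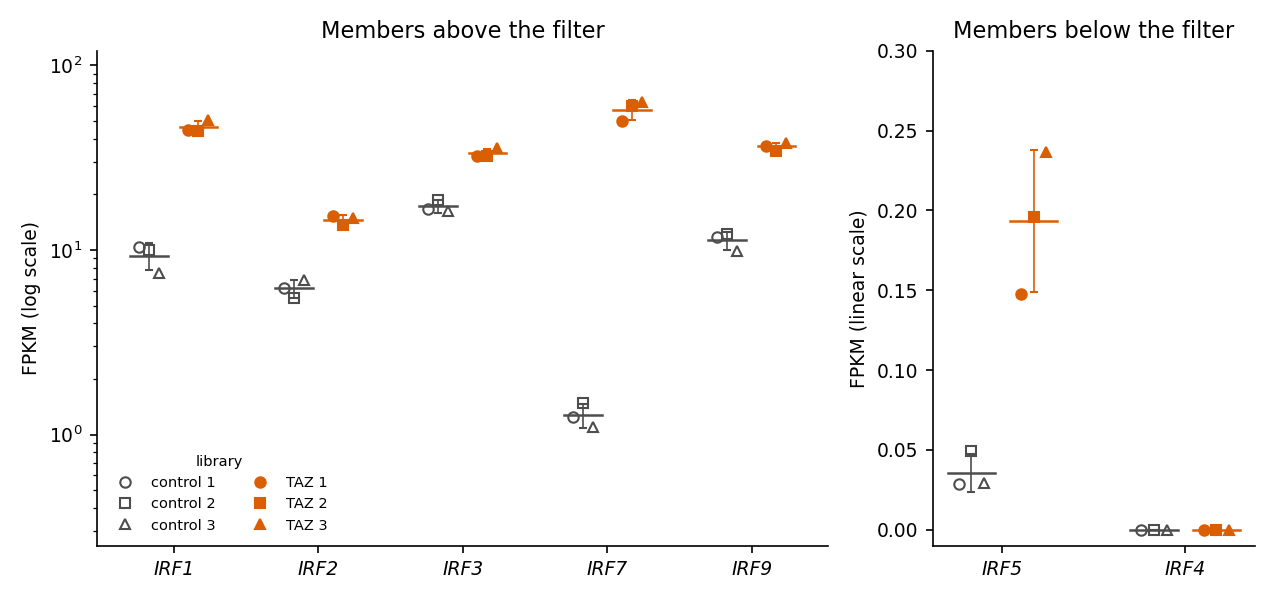
FPKM of the IRF genes in each library (open grey, control; filled orange, TAZ; the symbol gives the replicate), with the group mean and SD (n = 3); the left axis is logarithmic and the right axis linear. IRF1, IRF2, IRF3, IRF7, IRF9 and the low IRF5 show TAZ values above all control values, and IRF4 is at 0.

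IRF7, the amplifier of the interferon response, changed most. Control replicates 1, 2 and 3 held 1.24, 1.48 and 1.10 FPKM of it, TAZ replicates 1, 2 and 3 held 49.6, 60.1 and 62.9 FPKM. The groups were far apart, since the lowest TAZ library was well over 10 times the highest control. The means were 1.28 ± 0.194 and 57.6 ± 6.99 FPKM (SD, n = 3), a ratio of 45.1, with 249 fragments behind the control values and 11871 behind the TAZ values. The log2 fold change was 4.68 (SE 0.11, 95% interval 4.44 to 4.92, limma adjusted p = 1.42e-12), the 21st highest of the 10750 genes tested. A pseudocount of 0.1 gave 5.39 and limma's voom on the recovered fragments gave 5.55, because the control level is near the pseudocount of 1. In the controls IRF7 was a weakly expressed gene, above only 4.58% of tested genes in mean FPKM. In the TAZ libraries it was above 88.4% of them.

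IRF1, the activator downstream of interferon and NF-kB, came next. Its control libraries held 10.4, 10.04 and 7.54 FPKM and its TAZ libraries 44.7, 44.1 and 50.5 FPKM. The lowest control was replicate 3 and the highest TAZ library also replicate 3. The mean rose to 4.98 times its control level, 9.32 ± 1.55 against 46.5 ± 3.52 FPKM (log2 fold change 2.21, SE 0.11, 95% interval 1.96 to 2.46, limma adjusted p = 6.05e-09). IRF1 moved from above 48.4% to above 86.0% of the tested genes in mean level.

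IRF2, the antagonist of IRF1, rose as well but less. It was at 6.25, 5.49 and 6.90 FPKM in the controls and at 15.3, 13.6 and 14.8 FPKM in the TAZ libraries. Here control replicate 3, the lowest for IRF1, was the highest. The mean went from 6.21 ± 0.703 to 14.6 ± 0.855 FPKM, a ratio of 2.35 (log2 fold change 1.11, SE 0.10, 95% interval 0.90 to 1.33, limma adjusted p = 1.81e-06).

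IRF9, the DNA-binding subunit of ISGF3, measured 11.7, 12.2 and 9.86 FPKM in the controls and 36.7, 34.5 and 37.9 FPKM in the TAZ libraries. Every TAZ value was above every control value, and IRF9 was the second most abundant member in control cells. The mean rose from 11.3 ± 1.24 to 36.4 ± 1.70 FPKM, 3.23 times as high (log2 fold change 1.61, SE 0.096, 95% interval 1.404 to 1.82, limma adjusted p = 2.77e-08). Its partner STAT2 rose from 13.8 ± 0.469 to 39.7 ± 1.68 FPKM.

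IRF3, the constitutive sensor-activated factor, rose least of the 5. Its libraries were at 16.7, 18.7 and 16.3 FPKM in the controls and at 32.2, 32.2 and 35.7 FPKM in the TAZ group. The mean went from 17.2 ± 1.30 to 33.4 ± 2.0 FPKM, a ratio of 1.93 (log2 fold change 0.91, SE 0.090, 95% interval 0.72 to 1.11, limma adjusted p = 4.27e-06). Its change was the 437th highest of the 10750 genes, as 4.18% of them had a log2 fold change of 0.9 or more.

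**Figure D2:**
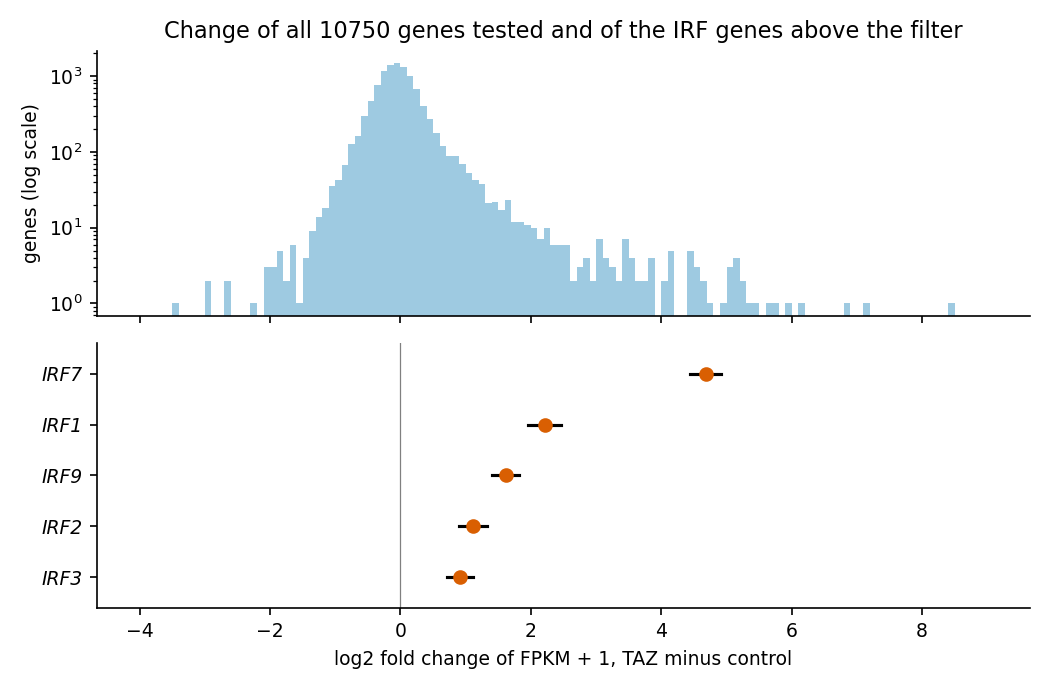
Upper panel, number of genes (log scale) by log2 fold change of FPKM + 1 in bins of 0.1, for all 10750 genes tested; lower panel, the 5 IRF genes above the filter with 95% intervals from limma. The 5 genes run from 0.91 for IRF3 to 4.68 for IRF7, all to the right of the bulk of genes, whose median is -0.05.

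The TAZ library with the most WWTR1, replicate 2 at 118 FPKM against 84.6 and 84.2 FPKM in replicates 1 and 3, was not the one with the highest IRF levels. Replicate 3 was the highest TAZ library for IRF1, IRF3, IRF7 and IRF9, and replicate 1 for IRF2. Replicate 2 was the lowest for IRF1, IRF2, IRF3 and IRF9. With 3 libraries no relation between WWTR1 and IRF levels can be tested within the group.

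The other two genes were close to the limit of detection. IRF5, a factor of Toll-like receptor signalling in myeloid cells, had 3, 5 and 3 fragments in control replicates 1, 2 and 3 and 15, 22 and 26 fragments in the TAZ replicates. These are 0.0358 ± 0.0119 against 0.193 ± 0.0443 FPKM, with no overlap. The ratio of fragment rates was 5.45, with a 95% interval of 2.85 to 11.5 that covers counting error only (exact binomial). IRF5 passed limma when no filter was set (adjusted p = 0.00325, against 25.2% of 16021 genes called in that fit, 10.9% as higher). Its log2 fold change there was 0.20 (SE 0.028) with a pseudocount of 1, and voom on the fragments with no filter gave 2.36. Beside this result, PTPRC was at 0 in all libraries, and the myeloid factor SPI1 (PU.1) was covered by 91 control and 100 TAZ fragments (limma with no filter, adjusted p = 0.904). Of the other leukocyte markers below the filter, named here after their values were seen, the integrin ITGB2 passed the same fit as higher, with 13 control and 113 TAZ fragments (limma adjusted p = 0.00224). The lymphocyte markers CD3E and CD79A passed it as lower, with 84 against 11 and 28 against 2 fragments (limma adjusted p = 0.00066 and 0.0129).

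IRF4, which fat cells and lymphocytes express, was listed at 0 in all 6 libraries. Each such 0 leaves room for a true level of 3 fragments in that library.

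The order of the members by FPKM was different in the 2 groups. In the controls IRF3 was the highest, above IRF9, IRF1, IRF2 and IRF7 in that order, and only the neighbours IRF9 and IRF1 had overlapping library values. In the TAZ libraries IRF7 led, followed by IRF1, IRF9, IRF3 and IRF2. There IRF7 and IRF1 overlapped, and so did IRF9 and IRF3, so the order within those pairs did not exceed the spread between libraries. The last places were held in both groups by IRF5 and IRF4.

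Added up, the 7 genes gave 46.3, 48.01 and 41.7 FPKM in the control replicates and 179, 185 and 202 FPKM in the TAZ replicates. The summed level was thus 4.16 times as high, and the mix of factors was different. IRF3 made up 38.0% ± 1.73 of the summed FPKM of control libraries and 17.7% ± 0.320 of that of TAZ libraries (SD, n = 3), although its own level rose. IRF7 went from 2.80% ± 0.250 to 30.5% ± 2.44. IRF1 held 20.5% ± 2.22 against 24.6% ± 0.644, IRF9 24.8% ± 1.01 against 19.3% ± 1.05, and IRF2 13.8% ± 2.56 against 7.76% ± 0.683. These shares describe messenger RNA per gene length and carry no test.

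**Figure D3:**
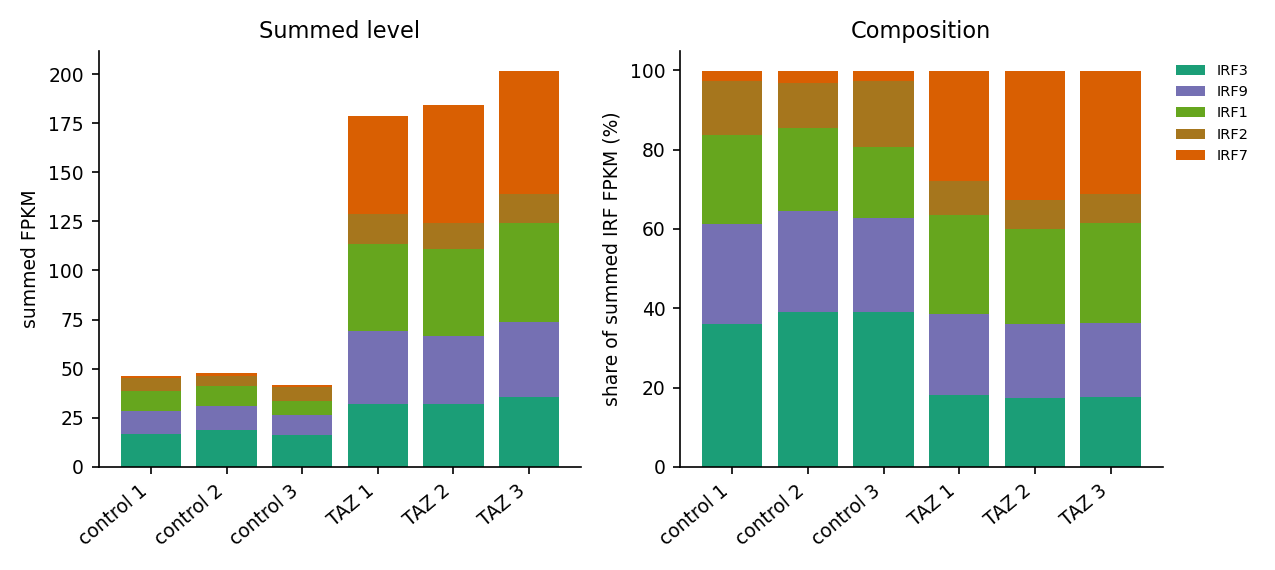
Left, FPKM of IRF3, IRF9, IRF1, IRF2 and IRF7 stacked for each library; right, each gene as a share of the summed FPKM of the 7 IRF genes, in percent. The summed level is 41.7 to 48.01 FPKM for the controls and 179 to 202 FPKM in the TAZ libraries, and the mean IRF7 share is 2.80% against 30.5%.

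Ratios between functional pairs were taken within each library, so that the library's scaling drops out. The ratio of IRF1, the activator, to IRF2, the antagonist, was 1.66, 1.83 and 1.09 in the control replicates and 2.93, 3.24 and 3.40 in the TAZ replicates. All TAZ ratios were above all control ratios, by 1.09 on the log2 scale on average. The ratio of IRF7 to IRF3, both substrates of TBK1, was 0.0744, 0.0792 and 0.0675 in the controls and 1.54, 1.87 and 1.76 in the TAZ libraries. IRF3 transcripts were thus the more abundant in every control library and IRF7 transcripts in every TAZ library, a log2 difference of 4.55. An exact permutation test (two-sided) gave p = 0.1 for both ratios, the smallest p that 3 libraries against 3 can give, and 0.15 adjusted over the 3 ratios tested. The ratio of IRF9 to STAT2, partners in ISGF3, was 0.833, 0.923 and 0.701 in the controls and 0.899, 0.851 and 1.002 in the TAZ libraries. These overlapped (log2 difference 0.17, exact permutation p = 0.4, adjusted 0.4), which does not show that the ratio was the same.

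**Figure D4:**
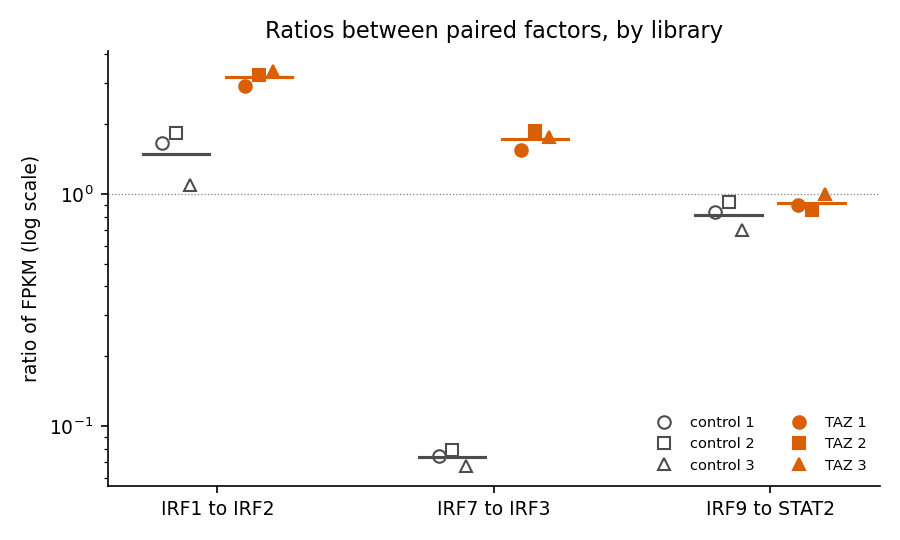
Ratio of FPKM values (log scale) of IRF1 to IRF2, IRF7 to IRF3 and IRF9 to STAT2 in each library (open grey, control; filled orange, TAZ), with the geometric mean of each group as a line and a dotted line at a ratio of 1. The first 2 ratios are higher in every TAZ library than in any control, and IRF9 to STAT2 overlaps.

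The genes nearest in pattern to each member with a log2 fold change of 1 or more were sought among the tested genes. Symbols starting with LOC and the IRF genes described here were left out of the search. Nearness was the root mean square difference over the 6 libraries, with each gene's log2(FPKM + 1) centred on its control mean. For IRF7 the nearest were BST2 (tetherin, an antiviral membrane protein), RTP4 and PSMB9 (an immunoproteasome subunit), at differences of 0.13, 0.15 and 0.17. BST2 went from 4.41 ± 0.717 to 125 ± 12.1 FPKM and PSMB9 from 0.81 ± 0.252 to 41.0 ± 4.79 FPKM. RTP4 went from 0.182 ± 0.0566 to 28.0 ± 1.05 FPKM. RTP4 and PSMB9 were under 1 FPKM in every control library and passed the filter through the TAZ group alone. The ratios of mean FPKM were 28.4 for BST2, 153 for RTP4 and 50.6 for PSMB9, against 45.1 for IRF7. Nearness on the log2(FPKM + 1) scale is thus not a like fold for such low genes. For IRF1 the nearest were TREX1 (a DNA exonuclease) at 0.072, PSMB10 (an immunoproteasome subunit) at 0.098 and EGLN3 at 0.12. TREX1 rose from 7.02 to 37.7 FPKM in the mean. For IRF9 they were SLC25A28 (a mitochondrial iron carrier) at 0.042, GNG11 at 0.066 and BNIP3 at 0.067, and for IRF2 they were XRN2 (a nuclear exoribonuclease) at 0.046, ENPP4 at 0.059 and ANK2 at 0.061. With 2 groups of 3 libraries, nearness mostly reflects a like difference between the groups.

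Upstream of the IRF proteins, 13 of 23 tested sensors, adaptors and kinases rose, 1 fell and 9 did not pass. Among all tested genes 15.7% rose and 37.9% changed in either direction. Of the 21 members of this list at 1 FPKM or more in every library, 12 rose and 1 fell. Among all genes at that level 14.7% rose and 36.4% changed. The median log2 fold change of the 23 was 0.33. The kinases that phosphorylate IRF3 and IRF7 both rose: TBK1 from 3.87 ± 0.403 to 7.55 ± 0.725 FPKM (log2 fold change 0.81, limma adjusted p = 5.01e-05) and IKBKE from 4.62 ± 1.07 to 12.4 ± 1.87 FPKM (log2 fold change 1.26, limma adjusted p = 1.18e-05). These 2 kinases were named for their role after their values were seen.

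The 4 largest log2 fold changes of this list belonged to sensors of nucleic acids in the cytosol. DDX58 (RIG-I) measured 2.08, 1.76 and 2.29 FPKM in the control replicates against 110, 93.8 and 86.6 FPKM in the TAZ replicates (log2 fold change 5.002, SE 0.11, limma adjusted p = 5.51e-13). IFIH1 (MDA5) rose from 2.03 ± 0.0882 to 48.4 ± 4.07 FPKM, DHX58 (LGP2) from 9.45 ± 0.588 to 59.5 ± 2.71 FPKM, and ZBP1, a sensor of Z-form nucleic acid, from 0.0218 ± 0.00973 to 32.1 ± 1.67 FPKM. ZBP1 had only 10 control fragments and passed the filter through the TAZ group alone. MAVS, the adaptor of RIG-I and MDA5, did not pass at 14.6 ± 1.45 against 15.5 ± 0.820 FPKM (limma adjusted p = 0.525), and neither did TMEM173 (STING) or MYD88, all 3 named after their values were seen. TBKBP1, a TBK1-binding adaptor, fell from 6.24 ± 0.424 to 4.78 ± 0.193 FPKM (log2 fold change -0.32, limma adjusted p = 0.0166).

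Of the 9 interferon gene symbols looked up only IFNE was in the tables, and the others were not analysed here. Interferon genes listed under other names were not looked up. IFNE was near 0, with 5 control and 17 TAZ fragments (limma with no filter, adjusted p = 0.223). Among 13 tested interferon receptors, Janus kinases and STAT factors, 8 rose, 0 fell and 5 did not pass, with a median log2 fold change of 0.37, against 15.7% of all tested genes that rose. All 13 were at 1 FPKM or more in every library. Besides STAT2, rises were seen in JAK2 (8.49 ± 1.46 to 18.5 ± 0.841 FPKM) and IFNGR1, a subunit of the interferon gamma receptor (10.5 ± 1.07 to 19.9 ± 0.812 FPKM). IFNAR2, a subunit of the type I receptor added after its values were seen, rose from 1.38 ± 0.219 to 2.56 ± 0.445 FPKM. Its partner IFNAR1, named likewise, did not pass at 7.73 ± 0.956 against 7.67 ± 0.832 FPKM (limma adjusted p = 0.959).

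The list of IRF partners and coregulators, which also holds regulators of Janus kinases and STAT factors, was mixed. Of 19 tested 9 rose, 1 fell and 9 did not pass (median log2 fold change 0.19), against 15.7% of all tested genes that rose and 37.9% that changed. Of the 17 at 1 FPKM or more in every library, 7 rose and 1 fell, while 14.7% of all such genes rose and 36.4% changed. TRIM21, a ubiquitin ligase that acts on IRF proteins, rose from 3.42 ± 0.0532 to 19.6 ± 1.15 FPKM, a log2 fold change of 2.22 (SE 0.091) with a limma adjusted p of 5.16e-10. NMI, an interferon-induced binding protein, rose from 20.8 ± 1.19 to 47.0 ± 3.52 FPKM, and SOCS1, a feedback inhibitor of Janus kinases, from 3.17 ± 0.488 to 8.85 ± 1.43 FPKM. SOCS1 is also counted among the IRF1 target genes below. BATF2, a basic leucine zipper factor that partners IRF proteins, had 0 fragments in every control library and 73, 82 and 69 in the TAZ replicates. BATF2 thus passed the filter through the TAZ group alone. Against a floor of 3 fragments over the control group its rate was 71.0-fold higher. This is a lower bound on the control side only, with the TAZ fragments taken as counted. PIAS4, a SUMO ligase that restrains STAT factors, fell from 12.7 ± 1.33 to 9.30 ± 0.729 FPKM (limma adjusted p = 0.00642). The IRF2-binding corepressor genes IRF2BP1, IRF2BP2 and IRF2BPL, named after their values were seen, did not pass, with adjusted p-values of 0.151, 0.263 and 0.216.

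Known target genes of the factors were higher throughout the tested part of both target lists, with 1 exception. All 24 tested genes of the ISGF3 target list rose (median log2 fold change 4.43), but 10 of them were under 1 FPKM in at least 1 library and could pass the filter through the TAZ group alone. Among the 14 that were at 1 FPKM or more in every library 14 rose, with a median of 3.50, where 14.7% of the 10135 such genes over the whole table rose. MX1, MX2, RSAD2 and ISG15 had the lowest adjusted p-values, with MX1 at 19.5 ± 0.907 and 1105 ± 38.7 FPKM. MX2 and RSAD2 were under 1 FPKM in every control library and are among the 10.

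Of 15 tested IRF1 target genes 14 rose and 0 fell (median log2 fold change 1.23), against 15.7% of all tested genes that rose, and 9 more were below the filter. Of the 14 at 1 FPKM or more in every library 13 rose, against 14.7% of such genes over the whole table. IL15, named for being the exception, did not pass, at 4.65 ± 0.250 against 4.23 ± 0.483 FPKM (limma adjusted p = 0.414). The genes with the lowest adjusted p-values belong to antigen presentation and its control. PSMB8, an immunoproteasome subunit, rose from 5.49 ± 0.337 to 63.3 ± 6.27 FPKM, TAP1, a peptide transporter subunit, from 4.43 ± 0.652 to 45.1 ± 3.804 FPKM, and CD274 (PD-L1) from 1.37 ± 0.105 to 19.7 ± 2.13 FPKM. PSMB9 was among them too, but at 0.519, 0.965 and 0.945 FPKM in the controls it passed the filter through the TAZ group alone. CXCL10, a chemokine gene below the filter and added after its values were seen, had 0 control fragments and 5, 3 and 8 in the TAZ replicates. Against the same floor its rate was 5.07-fold higher, again a lower bound on the control side only, with the TAZ fragments taken as counted.

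**Figure D5:**
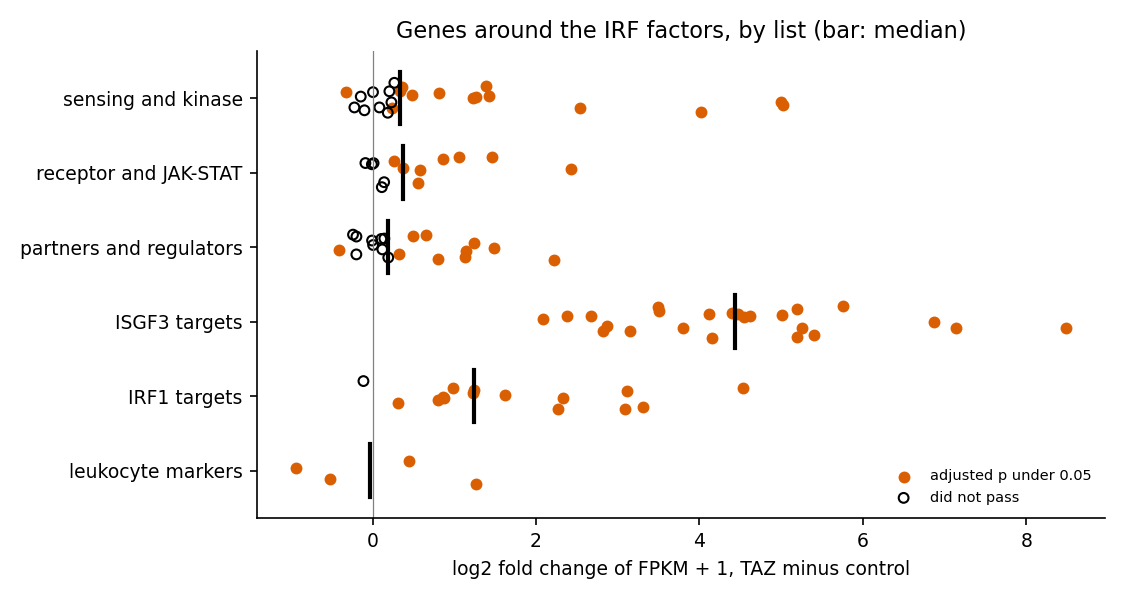
Log2 fold change of FPKM + 1 (TAZ minus control) of each tested gene in 6 lists (filled, adjusted p under 0.05 in limma; open, did not pass; bar, median of the list; vertical scatter has no meaning). The ISGF3 and IRF1 target lists have medians of 4.43 and 1.23, the sensor, receptor and partner lists 0.33, 0.37 and 0.19.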

How the data were processed

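RNA sequencing was done on 3 control and 3 TAZ libraries. The submitters' processing notes name fastp, HISAT2 and HTSeq. The sources used here give no genome build, annotation, strand setting or rule for reads shared between genes, so overlapping and antisense genes are uncertain and no coordinates are given. The authors deposited FPKM values, 1 table per group with 1 column per library, per the file headers. Of 16285 rows, 23 carried a date in place of a symbol and were left out. The other 16262 symbols were all in RefSeq assembly ARS1.2. It was used for names, for the length check below and for finding neighbouring genes.

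Fragment numbers were recovered by finding library totals and whole gene lengths that make every value a whole number of fragments. This succeeded for 99.99% of 16043 rows above 0, within a tolerance of 0.02 (largest distance 0.001). The scale was checked against RefSeq for the 16041 rows with a recovered length. That length equalled the gene's span for 569 genes, was double the span for 0 and was 0.5 times the span for 6. Floors and intervals cover counting error only, and folds against a floor leave out the counting error of the TAZ fragments. Every pair of libraries differed by more than sampling noise (chi-square per degree of freedom 15.3 or more).

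The 10750 genes that reached 1 FPKM in 3 or more libraries were tested with limma 3.58.1 in R 4.3.3 on log2(FPKM + 1), empirical Bayes with a mean-variance trend, two-sided, Benjamini-Hochberg over all of them, threshold 0.05. Both groups entered 1 fit. Ratios were tested by exact permutation in SciPy 1.17.1. The labels do not say that replicates are separate cultures, so the p-values rest on a spread that may be only technical. The fit and the recovery were tested on simulated data. The alternatives are named in the closing section.

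The members and the lists were chosen with earlier results of these data known. Genes named are all IRF rows, WWTR1, STAT2, SPI1, PTPRC, from each list of upstream, partner, target and marker genes the 4 of lowest adjusted p plus the first in the rarer direction, and the 3 nearest patterns. Any other gene named was chosen after its values were seen. Of the genes this rule names, 1 IRF row and a few further genes are not reported here. Of the list genes fixed, those absent from the tables were not analysed here.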

Additional observations from a re-analysis of the deposited data

How the results depend on the processing

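Tried were quantile normalization, median-ratio scaling, pseudocounts of 0.5 and 0.1, a filter on means under 5 FPKM or none, a fit with no mean-variance trend, the replicate number as a block, voom on recovered fragments and leaving out each library. IRF1, IRF2, IRF3, IRF7 and IRF9 stayed higher and past the threshold under all 15, with log2 fold changes of 2.08 to 2.39, 1.04 to 1.29, 0.87 to 1.01, 4.62 to 5.55 and 1.53 to 1.75. With no filter 6 IRF genes were called, IRF5 being added. For IRF5 the alternatives with no filter, chosen after seeing the data, kept the call (adjusted p up to 0.0214). The count of changed genes ran from 3049 to 4396. Of the called genes 41.6% were higher, against 52.4% under median-ratio scaling and 53.4% with voom. Same-numbered libraries did not deviate together (correlations of -0.436, -0.112 and -0.403), and no library correlated best with its own number. The highest correlations, 0.534, 0.552 and 0.691, joined different numbers. These values show no sign of pairing by number. With deviations from means of only 3 libraries they cannot exclude that same-numbered libraries were prepared together. With the replicate block 5 IRF genes and 3512 genes in all were called. List counts stayed within 1.5 times, the lowest for the sensors being 10 without control replicate 2. At this depth IRF4 and IRF5 are limited by counting error.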

Other observations

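The genes next to the IRF genes on the chromosome were found from gene positions in RefSeq assembly ARS1.2. They were matched to the data by name, a check added after the data were seen. Next to IRF9 lie RNF31, a ubiquitin ligase subunit, which rose from 12.3 to 22.7 FPKM in the mean (log2 fold change 0.84, limma adjusted p = 1.53e-05), and REC8, below the filter at 0.298 against 0.895 FPKM. Next to IRF7 lie PHRF1, which did not pass at 12.3 against 10.8 FPKM (limma adjusted p = 0.236), and CDHR5, near 0. The neighbours of IRF3, BCL2L12 and SCAF1, did not pass (limma adjusted p = 0.252 and 0.051). IRF1 overlaps a long noncoding RNA gene that was not analysed here, and the sources used here do not say whether its reads were counted for IRF1.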
